A study of Homo sapiens with 9 samples.

Results

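The complement genes described here are 9 of the 60617 genes in the count files: C1R, C1S, C3, CFB, CFI, SERPING1, CD46, CD55 and CD59. They were chosen by name, as complement components and regulators, from counts of these same 9 libraries that had already been seen, so their own levels and fold changes are given as a description with no p-value, and the counts of them past a threshold carry no weight. The choice set no threshold on any value. The libraries were RNA-seq of PC-3, an established human prostate cancer cell line. There were 3 control libraries (vehicle), 3 libraries of cells treated with decitabine, a cytidine analogue that blocks DNA methyltransferases, and 3 libraries of cells given decitabine together with S-adenosylmethionine (SAM), the methyl donor of the cell, here called the combination treatment. Doses were 1 µM decitabine and 200 µM SAM, and RNA was taken on day 5. All groups were 1 cell line, and nothing in the labels says that replicates came from separate cultures, so p-values measure the spread between these samples, which may be technical. Cells given SAM alone were not analysed here.

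Complement is a cascade of plasma and cell-surface proteins that tags and lyses targets. In the classical pathway the protease C1r activates the protease C1s, which cleaves C4 and C2. In the alternative pathway factor B binds C3b. Both routes build an enzyme that splits C3, the central component. Host cells hold the cascade back with soluble inhibitors, such as the C1 inhibitor (SERPING1) and the protease factor I (CFI), and with membrane proteins. Of the latter, CD46 is a cofactor for factor I, CD55 speeds the decay of the C3-splitting enzymes and CD59 blocks the final pore. The liver makes most plasma complement, and many epithelial tumour cells carry the membrane regulators. CD55 and CD59 sit on a glycosylphosphatidylinositol (GPI) anchor, whereas CD46 crosses the membrane.

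Totals lay between 21934307 and 22489684 estimated counts per library, and TMM factors, which correct for composition, between 0.895 and 1.08. Combination library 3 stood apart from its group, with 196 genes more than 2-fold from the mean of the other replicates, against 43 to 150 genes in the other libraries. Values without it are given beside the results that it moves most. The 5 epithelial markers (KRT7, KRT8, KRT18, KRT19, EPCAM) summed to 877 to 1127 TMM-scaled CPM (counts relative to the scaled library total) over all libraries. Within that sum KRT7 went from a mean of 3.83 CPM in controls to 214 with decitabine and 167 in the combination libraries, and KRT19 from 360.3 to 241 and 229. KLK3, a luminal prostate gene, was at 0 in every library. Because the samples are bulk RNA, fewer cells of a type and less RNA per cell cannot be told apart.

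The start regions of 2 genes are shown because these genes had contrasting profiles, CFB low in controls and variable, CD55 high in every library. They are RefSeq promoter windows of build GRCh38.p14, 250 bases before and 50 after the start, found for 6 of the 9 members. In the CFB window (chr6:31945845-31946144, + strand), capitals mark 2 motif matches. These are the opposite strand of the interferon-stimulated response element GAAANNGAAA, with its first base at -140, and the STAT-binding motif (GAS) TTCNNNGAA, at -92.
CFB: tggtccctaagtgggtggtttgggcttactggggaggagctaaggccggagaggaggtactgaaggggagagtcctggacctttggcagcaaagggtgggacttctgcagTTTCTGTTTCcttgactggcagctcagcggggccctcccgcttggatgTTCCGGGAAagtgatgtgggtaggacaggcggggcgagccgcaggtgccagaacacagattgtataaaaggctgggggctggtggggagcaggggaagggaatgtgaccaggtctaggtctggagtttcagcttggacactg
In the CD55 window (chr1:207321428-207321727, + strand), capitals mark the 19 CpG sites, the positions that DNA methyltransferases modify.
CD55: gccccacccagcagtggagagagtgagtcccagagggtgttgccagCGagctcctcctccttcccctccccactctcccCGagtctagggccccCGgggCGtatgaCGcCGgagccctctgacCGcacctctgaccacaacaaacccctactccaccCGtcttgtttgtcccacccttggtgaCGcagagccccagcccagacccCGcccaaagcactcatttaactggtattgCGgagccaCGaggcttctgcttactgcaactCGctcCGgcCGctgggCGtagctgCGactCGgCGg
The GAS letters occurred in 7.66% of all 35116 promoter windows and the response element in 3.57%, searched on both strands. The NF-kB motif GGGANTTTCC, found in 0.558% of all windows, was in none of the members' windows. GAS matches were also found in 1 of the 2 C1R windows (at -86) and in 2 overlapping CD59 windows (the same site, at -128 and -184), and none of these motifs was in the windows of CD46, CD55 and CFI. CpG sites numbered 25 in each CD46 window, 10 and 8 in the C1R windows, 7 in CFB, 2 in CFI, and 18, 22, 1 and 1 in the 4 CD59 windows, against a median of 14 over all windows. A match is a description of letters, and neither factor binding nor methylation was measured in these libraries.

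The proteases and core components were low in controls and higher after decitabine, and the membrane regulators were abundant throughout and differed by at most 0.54 in mean log2 fold change. In controls, levels per kilobase of the canonical transcript (CPM per kb, mean ± SD, n = 3) were 298 ± 24.7 for CD55, 91.7 ± 0.673 for CD59 and 45.8 ± 0.209 for CD46. The other members followed far below. C1R stood at 0.453 ± 0.0825 CPM per kb, CFB at 0.341 ± 0.106, C1S at 0.197 ± 0.0735 and C3 at 0.0728 ± 0.0144. In this order C1R and CFB overlapped between libraries, as did CFB and C1S, and all other neighbours among these 7 were separate. After decitabine, CFB moved above C1R, at 9.30 ± 2.32 against 2.09 ± 0.413 CPM per kb, followed by C1S at 0.888 ± 0.325 and C3 at 0.520 ± 0.246, whose ranges overlapped. With the combination treatment, CD55 stood at 434 ± 39.1, CD59 at 81.1 ± 5.75 and CD46 at 43.9 ± 0.895 CPM per kb.

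**Figure D1:**
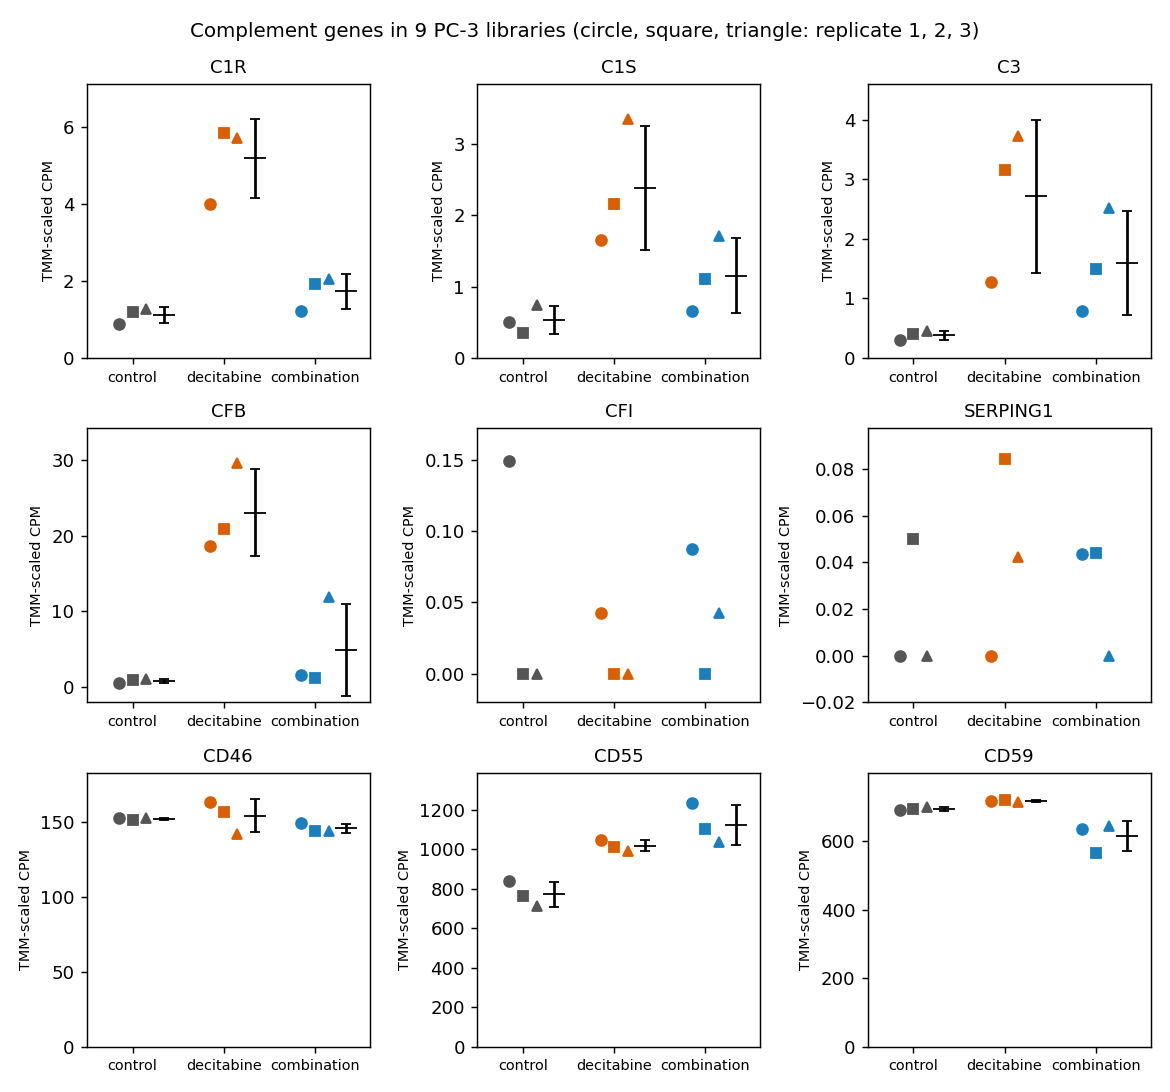
Each panel plots 1 gene in TMM-scaled CPM (vertical axis, from 0 in the panels of CD46, CD55, CD59, C1R, C1S and C3) for the 3 control, 3 decitabine and 3 combination libraries, with black bars for the mean and SD (n = 3) except for CFI and SERPING1, which had at most 3 counts. C1R and CFB were highest in the decitabine libraries, combination library 3 lay above the other combination libraries for CFB (11.9 against 1.23 and 1.57), and CD46 lay between 142 and 164 throughout.

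C1R, the protease that activates C1s, had 0.894, 1.20 and 1.28 CPM in the controls, 4.02, 5.86 and 5.72 with decitabine and 1.22, 1.94 and 2.04 in the combination libraries. The decitabine libraries lay above all others, and the combination libraries overlapped the controls. C1R was 4.60-fold higher with decitabine than in controls (log2 fold change 2.20 ± 0.25, SE) and 2.99-fold lower in the combination libraries than with decitabine alone (-1.58 ± 0.23). Against controls the combination treatment gave 0.62 ± 0.27.

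C1S, which cleaves C4 and C2, had 0.497, 0.350 and 0.740 CPM in the controls, 1.65, 2.15 and 3.35 with decitabine and 0.653, 1.10 and 1.70 in the combination libraries. The combination libraries overlapped both other groups, while decitabine and control libraries were separate. The log2 fold change was 2.16 ± 0.40 for decitabine against control, 1.12 ± 0.43 for the combination treatment against control and -1.04 ± 0.35 between the treatments. Without combination library 3 the last 2 values were 0.72 and -1.44. All rest on few reads, 7 to 15 counts in a control library and 15 to 79 in a treated one.

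C3, the component on which all pathways meet, had 6, 8 and 9 counts in the controls, 30, 75 and 88 with decitabine and 18, 34 and 59 in the combination libraries. Every treated library lay above every control, and the treatments overlapped each other. C3 was 7.05-fold higher with decitabine (log2 fold change 2.82 ± 0.53) and 4.16-fold higher in the combination libraries (2.06 ± 0.56), with -0.76 ± 0.42 between the treatments. It passed the filter on low counts only through treated libraries. Without combination library 3, the combination treatment against control gave 1.56, and between the treatments C3 gave -1.25.

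CFB, the protease precursor of the alternative pathway, had 0.546, 0.951 and 1.04 CPM in the controls, 18.6, 20.9 and 29.5 with decitabine and 1.57, 1.23 and 11.9 in the combination libraries. The groups did not overlap, and the combination group was split, with library 3 between the decitabine libraries and the others, which lay just above the controls. It was 27.1-fold higher for decitabine against control (log2 4.76 ± 1.01) and 2.54 ± 1.11 on the log2 scale for the combination treatment against control. Between the treatments it was -2.22 ± 0.77. Without combination library 3 the last 2 values were 0.72 and -4.03. Relative to C3 counts, CFB counts were 1.83 to 2.38 times as many in controls, 6.61 to 14.7 with decitabine and 0.823 to 4.75 in the combination libraries.

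The soluble regulators CFI and SERPING1 were not detectable beyond the floor of 3 counts. CFI had 3, 0 and 0 counts in the controls, 1, 0 and 0 with decitabine and 2, 0 and 1 in the combination libraries. SERPING1 had 0, 1 and 0 counts in controls, 0, 2 and 1 with decitabine and 1, 1 and 0 in the combination libraries. A count of 3 equals 0.127 to 0.15 CPM in these libraries, so no fold change is given for either gene, and intervals and floors here cover counting error only.

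CD55, the decay-accelerating factor, had 837, 764 and 710 CPM in the controls, 1048, 1013 and 992 with decitabine and 1234, 1103 and 1035 in the combination libraries. All treated libraries lay above all controls, and the treatments overlapped. The log2 fold change was 0.40 ± 0.08 for decitabine against control, 0.54 ± 0.08 for the combination treatment against control and 0.14 ± 0.08 between the treatments.

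CD59, the inhibitor of the membrane attack complex, had 689, 691 and 699 CPM in the controls, 717, 718 and 714 with decitabine and 634, 564 and 643 in the combination libraries. The combination libraries were the lowest and the decitabine libraries the highest, with small differences. The log2 fold change was 0.05 ± 0.07 for decitabine against control, -0.18 ± 0.07 for the combination treatment against control and -0.22 ± 0.07 between the treatments. Scaled by library size alone, the combination treatment against control gave 0.05, so its direction against control depends on the scaling.

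CD46, the membrane cofactor protein, had 153, 151 and 152 CPM in the controls, 164, 157 and 142 with decitabine and 149, 144 and 144 in the combination libraries. Decitabine libraries spread around the controls. The log2 fold change was 0.02 ± 0.07, -0.06 ± 0.07 and -0.08 ± 0.07 in the order of comparisons used for CD59, and by library size alone the combination treatment against control gave 0.16. In counts of the same library, which no scaling alters, CD55 was 1.02 to 1.22 times CD59 in controls, 1.39 to 1.46 times with decitabine and 1.61 to 1.96 times in the combination libraries, with no overlap between groups. CD55 relative to CD46 was 4.66 to 5.49 in controls, 6.41 to 6.99 with decitabine and 7.19 to 8.28 in the combination libraries.

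**Figure D2:**
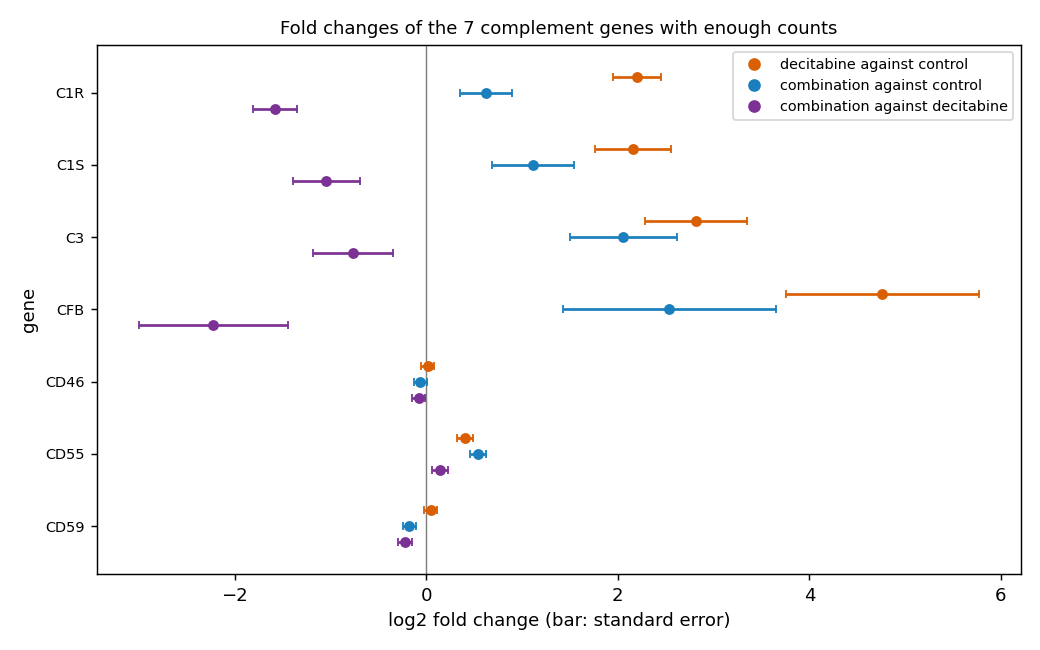
The log2 fold change (horizontal axis, bars show the standard error of the fit) of the 7 members with enough counts is plotted for decitabine against control, combination against control and combination against decitabine, from fits on 3 libraries per group. CFB lay farthest from 0 with decitabine, at 4.76, while CD46 and CD59 lay between -0.22 and 0.05 in all comparisons.

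Of the 9 members, 7 passed the filter on low counts and CFI and SERPING1 did not. With decitabine against control, 5 of the 7 were higher at an adjusted p under 0.05 in edgeR's quasi-likelihood test (C1R, C1S, C3, CFB and CD55) and 0 were lower, where 36.3% of all 18532 genes tested were higher and 32.5% lower. With the combination treatment against control, C1S, C3 and CD55 were higher and CD59 lower, where 35.9% of all genes tested were higher and 31.3% lower. Between the treatments, 0 were higher and 2, C1R and CD59, were lower, where 7.67% of all genes tested were higher and 8.02% lower. Since the members were chosen on these libraries, nothing is read from these counts. Both comparisons against control share the 3 control libraries. For the combination treatment against control, the C1S call was lost without control library 1 or 2, or without combination library 2 or 3. The CD59 call against control was lost without any 1 of the control libraries, without decitabine library 2 and without combination library 2. The count of 4 against control became 2 without control library 1 or 2, and the count of 2 between treatments became 4 without combination library 3 and 1 without each of 7 other libraries. Without decitabine library 1 it was again 2, but the CD59 call was lost, as it was in those 7 cases. Scaling by library size alone shifts the median of all genes from 0.03 to 0.28 (log2) for decitabine against control. For the combination treatment against control the shift is from 0.05 to 0.27. So scaled, 7 members were higher and 0 lower with decitabine, and 5 higher and 0 lower in the combination libraries. The shares of all genes past the threshold under this scaling are not given, so these counts have no background.

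Several members overlap other genes, and whether the libraries kept strand is not given in the sources used here. C1R overlaps its relative C1RL, C3 overlaps GPR108 and CFB overlaps C2, each on the same strand. GPR108 had 1047 to 1460 counts in a library, C1RL 7 to 41 and C2 19 to 91. CD59 overlaps ENSG00000284969 on the same strand, with 66 to 137 counts. The part of these genes in the members' values was not tested. C1S overlaps LPCAT3 on the opposite strand, which had 689 to 707 counts in controls and 1280 to 1526 in treated libraries, and its part in the C1S values was not tested. CD46 overlaps MIR29B2CHG on the opposite strand, with 20 to 55 counts. On build GRCh38 (GENCODE 44), C1R (ENSG00000159403) lies at chr12:7080214-7092540 and C1S (ENSG00000182326) at chr12:6988259-7071032. C3 (ENSG00000125730) is at chr19:6677704-6730562, CFB (ENSG00000243649) at chr6:31945650-31952086 and CFI (ENSG00000205403) at chr4:109731008-109802150. SERPING1 (ENSG00000149131) is at chr11:57597387-57619171 and CD59 (ENSG00000085063) at chr11:33703010-33736479. CD46 (ENSG00000117335), at chr1:207752037-207795513, and CD55 (ENSG00000196352), at chr1:207321519-207386804, both lie on chromosome 1.

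The rest of the complement system was examined as a list of 52 further genes, taken by their textbook roles, of which 24 passed the filter. Of the other 28, 9 were at 0 in every library, among them C1QA, C1QB and C1QC, the chains of the recognition molecule C1q, and the highest count of any was 15. With decitabine against control, 20 of the 24 passed as higher and 0 as lower (median log2 fold change 2.08, against 0.03 for all genes tested, of which 36.3% were higher and 32.5% lower). With the combination treatment, 14 were higher and 1, CSMD2, was lower (median 1.04, against 0.05, with 35.9% of all genes tested higher and 31.3% lower). Between the treatments, 1 was higher and 8 were lower (median -0.50, against 0.00214, with 7.67% higher and 8.02% lower). Of the 24, 9 passed the filter only through treated libraries, so neither these counts nor these medians are a measure of the whole list.

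Soluble regulators led this list. VTN (vitronectin, which blocks insertion of the terminal complex) had 0, 3 and 2 counts in the controls, 339, 420 and 406 with decitabine and 178, 222 and 239 in the combination libraries. VTN had fitted log2 fold changes against control of 7.54 ± 0.31 and 6.71 ± 0.33 and was lower in the combination libraries than with decitabine (-0.83 ± 0.16, adjusted p = 0.0044). C4BPB, the beta chain of the C4b-binding protein, had 5 counts in each control library, 492, 613 and 689 with decitabine and 388, 430 and 572 in the combination libraries, with fitted values against control of 6.64 ± 0.25 and 6.30 ± 0.26. Between the treatments C4BPB gave -0.33 ± 0.14 (adjusted p = 0.12), and -0.50, past the threshold, without combination library 3. VTN, C4BPB and C4BPA passed the filter only through treated libraries, so their tests against control are not given. Fitted changes of genes this close to 0 in controls depend on the prior count of the fit. Its partner C4BPA had 1 count over all controls, 54 over the decitabine libraries and 71 over the combination libraries, ratios of 45.9 (95% counting interval 7.9 to 1850) and 62 (10.8 to 2480) after scaling.

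The terminal component C8G had 6, 4 and 5 counts in the controls, 51, 77 and 99 with decitabine and 74, 77 and 81 in the combination libraries. It too passed the filter only through treated libraries, and C8G had fitted log2 fold changes against control of 3.66 ± 0.33 and 3.73 ± 0.33, with 0.07 ± 0.22 between the treatments. Of the other C8 genes, C8A had at most 1 count in a library and C8B had 0 in every library. Neither was tested. C4A and C4B, near-identical genes for the substrate of C1s whose reads can be split wrongly between them, summed to 52, 66 and 71 counts in the controls, 194, 160 and 120 with decitabine and 42, 52 and 63 in the combination libraries. The decitabine libraries lay above all others. C4B taken alone rose with decitabine (1.63 ± 0.31, adjusted p = 0.00026) and was lower in the combination libraries than with decitabine (-2.26 ± 0.32, adjusted p = 0.00088).

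Among receptors, CR2 (the C3d receptor) was the 1 gene higher in the combination libraries than with decitabine (0.70 ± 0.18, adjusted p = 0.02), a call lost without decitabine library 2 (0.69) or combination library 1 (0.73). CR2 had 9, 10 and 15 counts in controls, 71, 69 and 69 with decitabine and 106, 96 and 130 in the combination libraries. ITGB2, the beta chain of the complement receptors CR3 and CR4, rose with decitabine (2.25 ± 0.15, adjusted p = 1.2e-08) and in the combination libraries (1.17 ± 0.15, adjusted p = 1.1e-05), with -1.09 ± 0.13 between the treatments (adjusted p = 0.00041). The alpha chains of these receptors were close to absent, with 0 to 3 counts in a library for ITGAM and 0 to 2 for ITGAX. Neither was tested. C3AR1, the C3a receptor, had 3, 1 and 6 counts in controls, 40, 43 and 60 with decitabine and 0, 1 and 17 in the combination libraries. C3AR1 passed the filter only through treated libraries, among them all decitabine libraries, where it was highest, so no p-value is given for it. Between the treatments C3AR1 differed by -2.93 ± 0.73, and by -6.20 without combination library 3. Nothing is read from the call of C3AR1 between the treatments. That call was lost without any 1 of the decitabine libraries (values from -3.04 to -2.73) or without combination library 2 (-2.45). CSMD2, a membrane protein with complement control domains, fell in the combination libraries against control (-0.44 ± 0.12, adjusted p = 0.0059), a call lost by library size alone (-0.22).

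**Figure D3:**
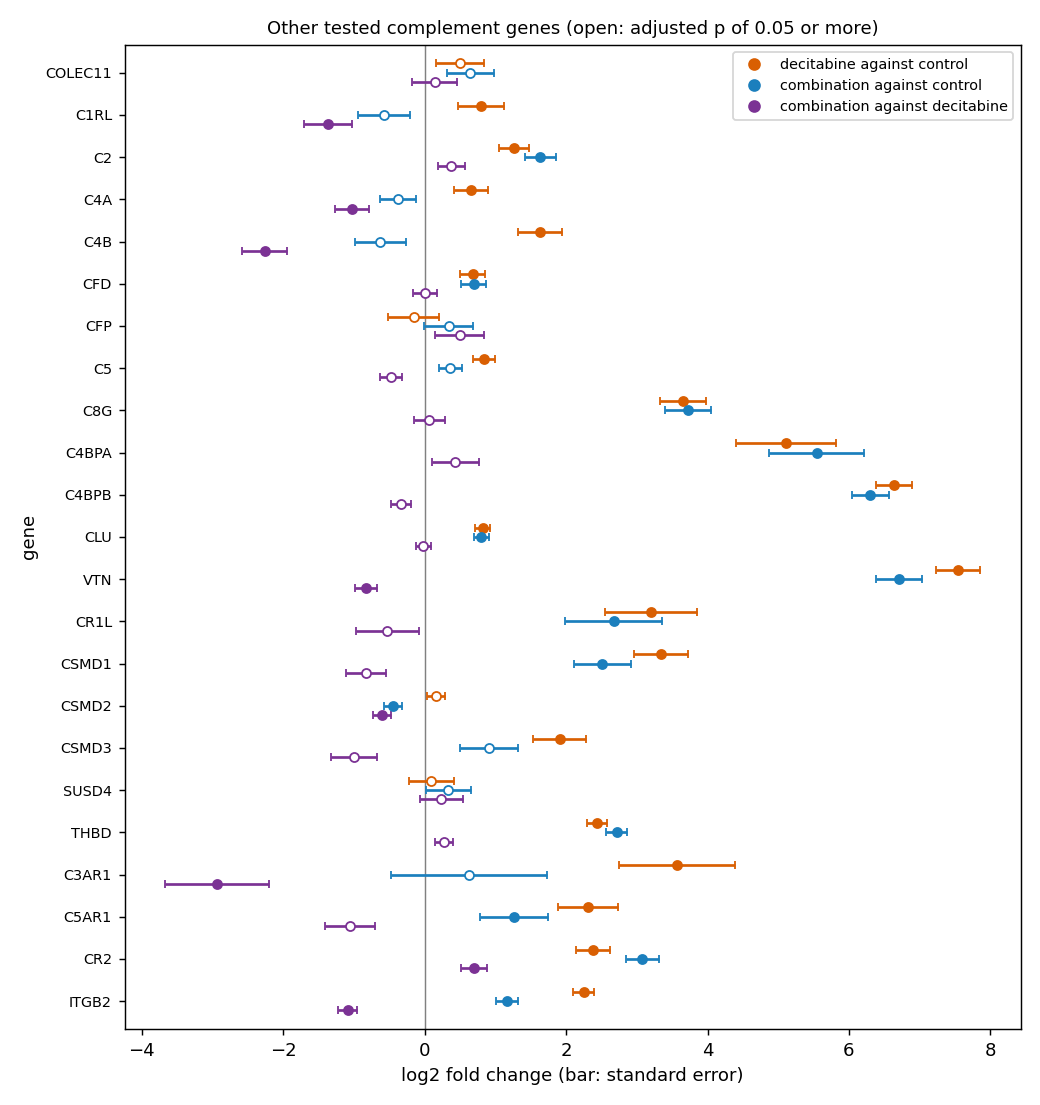
Other complement genes that passed the filter are plotted by their fitted log2 fold change (horizontal axis, bars show the standard error) in the same comparisons, with filled points where the adjusted p was under 0.05. VTN and C4BPB lay above 6 on both comparisons against control, and CR2 was the filled point above 0 between the treatments.

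CD55 and CD59 need the GPI anchor to reach the surface, so 29 genes that build, attach or remodel it were examined, of which 28 were tested. With decitabine against control 4 rose and 13 fell (median -0.18, against 0.03 for all genes tested), and in the combination libraries 5 rose and 14 fell (median -0.20, against 0.05). Over all genes tested, 36.3% were higher and 32.5% lower with decitabine, and 35.9% and 31.3% in the combination libraries. By library size alone the split was 10 higher and 6 lower with decitabine and 9 and 9 in the combination libraries. The balance thus depends on the scaling, and the shares of all genes past the threshold under that scaling are not given. PIGA, a subunit of the enzyme of the first step, had 879, 692 and 708 counts in the controls, 485, 449 and 432 with decitabine and 459, 480 and 482 in the combination libraries. PIGA fell in both (-0.97 ± 0.10, adjusted p = 8.7e-07, and -0.88 ± 0.10, adjusted p = 2.4e-06). PIGU, a subunit of the transamidase that attaches the anchor, fell by a log2 value of -1.34 ± 0.09 (adjusted p = 9.7e-09) and -1.30 ± 0.09 (adjusted p = 1.3e-08), and PIGO, which adds ethanolamine phosphate, by -1.11 ± 0.08 (adjusted p = 4.5e-08) and -1.12 ± 0.08 (adjusted p = 4.1e-08). PIGG, another enzyme that adds ethanolamine phosphate, rose in both (0.53 ± 0.07, adjusted p = 6.4e-06, and 0.35 ± 0.07, adjusted p = 0.00033). PIGW, the inositol acyltransferase, gave 0.29 ± 0.09 (adjusted p = 0.0092) and 0.64 ± 0.09 (adjusted p = 1.8e-05), the former losing its call without control library 2 (0.25) or 3 (0.23). DPM3, a subunit of the mannose donor synthase, rose in the combination libraries (0.64 ± 0.15, adjusted p = 0.0018), with 0.02 ± 0.15 for decitabine against control. Between the treatments 3 rose and 3 fell, where 7.67% of all genes tested were higher and 8.02% lower. GPAA1, another transamidase subunit, was among those that fell (-0.52 ± 0.08, adjusted p = 0.002). The count of 6 between the treatments became 1 without decitabine library 2, 2 without combination library 1 and 1 without combination library 2.

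**Figure D4:**
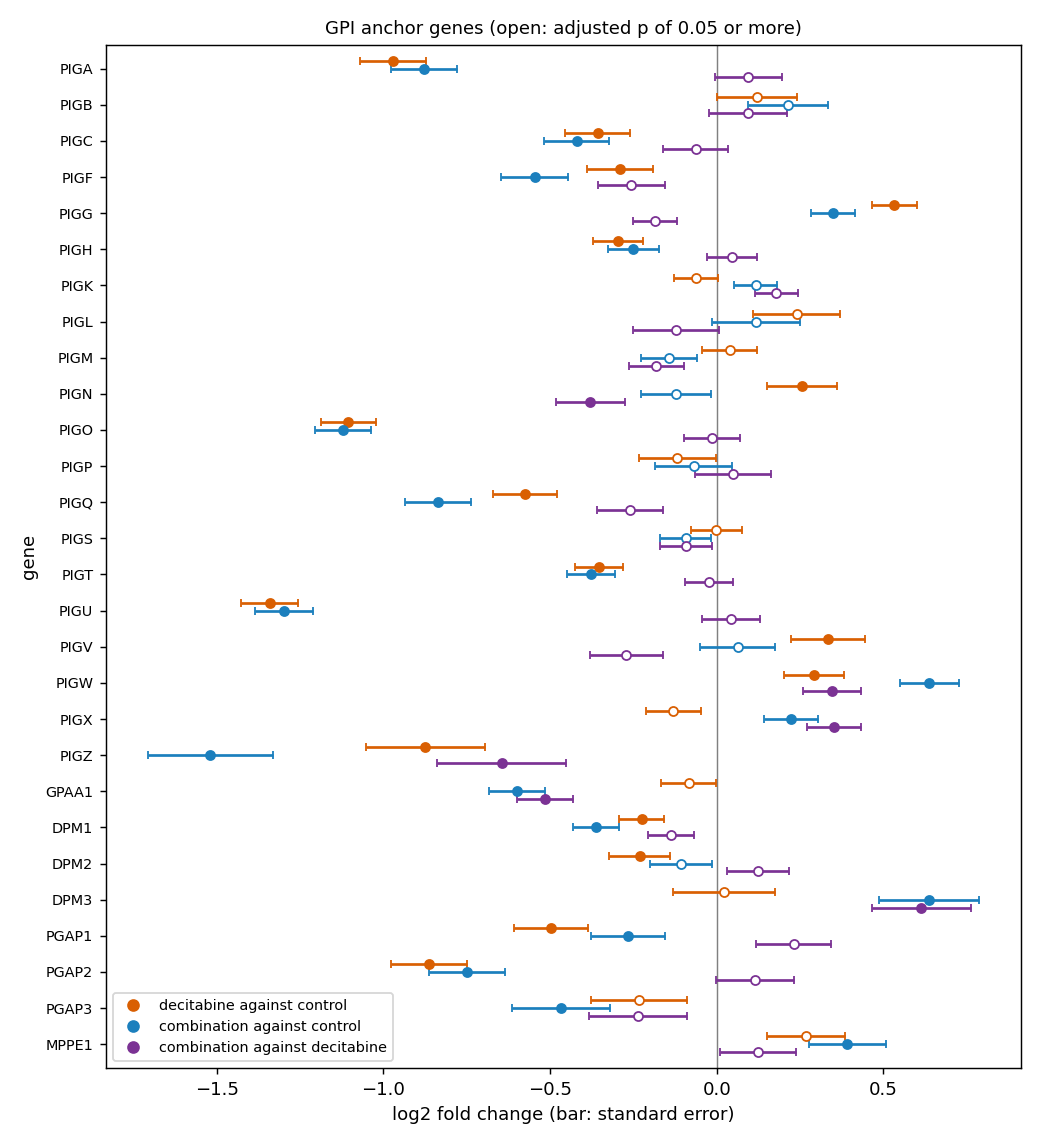
The 28 tested GPI anchor genes are plotted by log2 fold change (horizontal axis, bars show the standard error) in the same comparisons, with filled points where the adjusted p was under 0.05. PIGU and PIGO lay below -1 in both comparisons against control, and with TMM scaling more filled points lay below 0 than above (13 against 4 with decitabine, 14 against 5 in the combination libraries), a balance that library size alone changed to 6 against 10 and 9 against 9.

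Interferons and the cytokines IL-6 and oncostatin M are textbook inducers of complement genes, acting through STAT and IRF factors. Of 18 genes of these routes, 17 were tested and 1 was listed at 0. With decitabine 8 rose and 1, IFNAR1, fell (median 0.47, against 0.03 for all genes tested), and in the combination libraries 5 rose and 1, OSMR, fell (median 0.23, against 0.05). Over all genes tested, 36.3% were higher and 32.5% lower with decitabine, and 35.9% and 31.3% in the combination libraries. Nothing is read from these counts. By library size alone these were 11 higher and 0 lower, and 9 higher and 0 lower, and the shares of all genes under that scaling are not given. Between the treatments 0 rose and 6 fell, among them STAT2, IRF1, IRF9, OSMR and IL6. The median was -0.24, against 0.00214 for all genes tested, of which 7.67% were higher and 8.02% lower. The STAT2 call (-1.51 ± 0.29, adjusted p = 0.017) was lost without decitabine library 1 or 2 (-1.43 and -1.58) or combination library 1 or 2 (-1.33 and -1.35), and without combination library 3 it was -1.94. IFNAR1, not past the threshold in the combination libraries against control (-0.18 ± 0.08, adjusted p = 0.061), was lower without combination library 3 (-0.28), while by library size alone it gave 0.044. The IL6 call (-0.86 ± 0.25, adjusted p = 0.036) was kept only without control library 3, decitabine library 1 or combination library 3, over values from -1.13 to -0.67. IRF9, a subunit of the interferon-activated transcription complex, went from 23.5 ± 3.95 CPM (mean ± SD, n = 3) in controls to 108 ± 13.1 with decitabine and 49.6 ± 6.82 in the combination libraries (2.21 ± 0.14, adjusted p = 5.1e-08, and 1.08 ± 0.14, adjusted p = 2.2e-05).

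**Figure D5:**
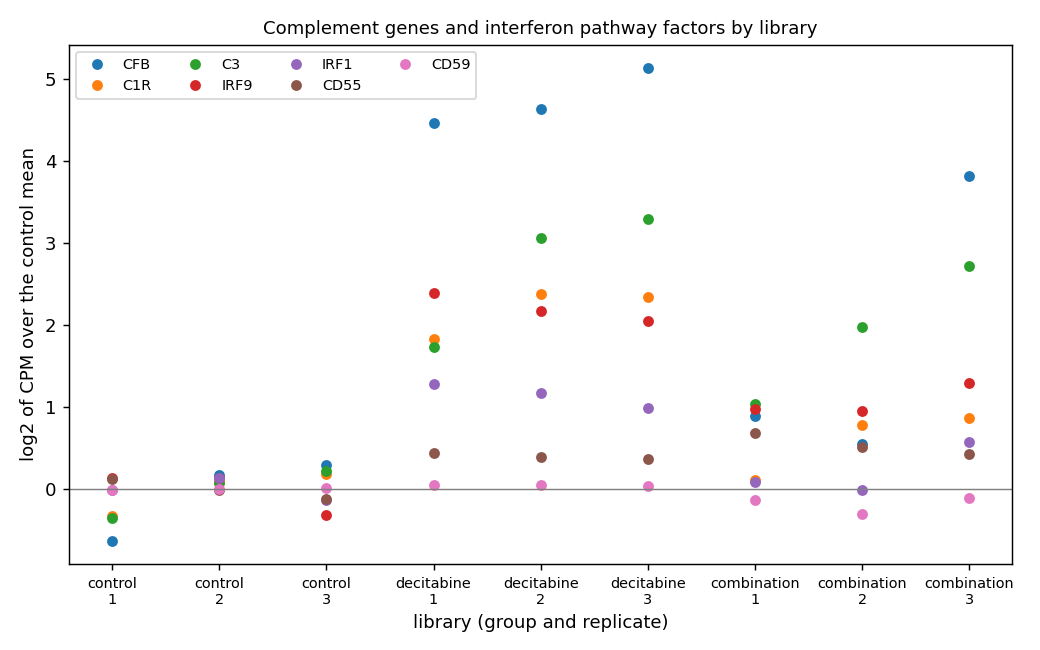
For each of the 9 libraries (horizontal axis), the log2 of the CPM over the control mean is plotted for 5 complement genes and for IRF9 and IRF1. In combination library 3 CFB, C3, IRF9 and IRF1 lay above their values in the other combination libraries, CFB at 11.9 CPM against 1.23 and 1.57.

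By distance between profiles (root mean square of the differences of centred log2 CPM over the 9 libraries), the genes nearest to CFB were OASL (0.43), TRANK1 (0.507) and XAF1 (0.52). C1R was nearest to MGC16275 (0.189) and GBP3 (0.261), C1S to OR10AC1 (0.214) and SEC16B (0.229), and C3 to SSTR2 (0.257) and SAA1 (0.264). CD55 had SETD3 (0.0632) and OPN3 (0.0642) nearest, CD59 had PARP3 (0.0462) and USP15 (0.0467), and CD46 had UTP4 (0.0158). The 9 libraries are 3 groups with shared depth and scaling, so these distances describe the data and carry no test.

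Markers of other cell types that make complement also differed between the groups. The 5 hepatocyte markers (ALB, APOA1, TTR, FGB, SERPINA1) summed to 7.99 to 12.2 CPM in controls, 33.7 to 35.0 with decitabine and 24.4 to 27.4 in the combination libraries. ALB had 0 to 4 counts, APOA1 0 to 5 and TTR 0 to 1 in a library. SERPINA1, also made outside the liver, had 156 to 763 counts. FGB, the fibrinogen beta chain, had 0, 1 and 0 counts in controls, 54, 57 and 57 with decitabine and 149, 134 and 80 in the combination libraries. For the 6 macrophage markers (CD14, CD68, CSF1R, CD163, PTPRC, AIF1) the sums were 38.4 to 48.2, 223 to 300.6 and 105 to 183 CPM, with 768 to 7046 counts for CD68, 0 to 3 for CD163 and 0 to 1 for AIF1. PTPRC had 1 or 2 counts in a control library, 21 to 30 with decitabine and 13 to 23 in the combination libraries, and CD14 had 3 or 4, 14 to 18 and 14 to 24. The 6 fibroblast markers (COL1A1, COL1A2, COL3A1, DCN, LUM, PDGFRB) summed to 4.79 to 6.95, 92.1 to 133 and 76.0 to 103 CPM. Means in that order of groups were 2.98, 57.6 and 47.2 CPM for COL1A1 and 0.614, 45.7 and 33.2 for COL1A2. COL3A1 had 1.57, 2.72 and 2.89 CPM, and LUM 0.116, 6.74 and 5.28. DCN had 0.0334, 1.10 and 1.30 CPM, and PDGFRB 0.481, 0.366 and 0.477. The part of these markers in the complement results was not tested.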

How the data were processed

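RNA of 9 PC-3 libraries was sequenced on a BGISEQ-500. According to the submitters' processing notes, the authors trimmed reads with Trim Galore 0.6.4, quantified them with kallisto and used build GRCh38.p13. The deposited values are estimated counts per Ensembl gene, with decimals and not normalized; deposited log2 CPM values were not used. Counts were rounded. Of 60617 identifiers, 60357 were matched to GENCODE 44. The members and gene lists were chosen with earlier results of these data known, and no p-value is printed for a member.

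Genes passing filterByExpr (18532) were fitted in edgeR 4.0.16 (R 4.3.3) with TMM scaling, robust quasi-likelihood dispersions and 1 mean per group over all libraries. P-values were adjusted by Benjamini-Hochberg over all genes tested, at a threshold of 0.05. The SE was the absolute log2 fold change over the square root of the F statistic. Depth, 21934307 to 22489684 counts per library, sets a floor of 3 counts. An exact permutation test of 3 against 3 cannot go below p = 0.1.

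Named genes were the members, the genes overlapping them, the 3 nearest profiles of each, PIGA, and in each direction and comparison the largest changes past the threshold: 5 among other complement genes with groups apart, and 3 among GPI anchor and inducer genes. C4A, C8A, C8B, ITGAM, ITGAX, IRF1, the C1q genes and marker genes were named outside that rule, after their values were seen. Some genes overlapping members were not named. As alternatives, TMM was replaced by library size alone or by DESeq2's size factors, the test by DESeq2 1.42.0 or by voom with limma 3.58.1, and the filter by none or by a minimum mean of 10 counts. Others fitted only both groups compared (6 libraries), blocked on the replicate number, or omitted each library in turn. A few genes are not reported here. Promoters came from RefSeq (GRCh38.p14).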

Additional observations from a re-analysis of the deposited data

How the results depend on the processing

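Of 1884 values under the alternatives, for 111 fold changes of named genes, 1730 kept their direction and their side of the threshold, 98 lost a call, 35 gained one, and 21 changed sign. Of the members, the count past the threshold with decitabine against control was 5 when any 1 library was left out. It includes C3, which passed the filter only through treated libraries. For the combination treatment against control the count of members ranged from 2 to 5 and between the treatments from 1 to 4. With only the 6 libraries compared, the last was 1. For the GPI anchor genes between the treatments the count ranged from 1 to 6. The shares of all genes past the threshold in these fits are not given, so nothing is read from these counts.

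The main fit did not use the replicate numbers, and whether they pair the samples is not known. The correlation of deviations between same-numbered libraries was 0.233, 0.0359 and 0.229 for decitabine with the combination treatment and -0.0165 to 0.0694 with controls, and libraries correlated best with their own number in 12 of 18 cases. With the replicate number as a block, 4 members passed the threshold between the treatments instead of 2. For the combination treatment against control it was 5 instead of 4. The shares of all genes in the blocked fit are not given, so nothing is read from these counts.

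Changes of sign were small apart from C3AR1, and the cause was not tested. Scaled by library size alone, PIGX gave 0.12 and GPAA1 0.16 with decitabine against control, and CD46 gave 0.16, CD59 0.046, IFNAR1 0.044 and PIGN 0.10 with the combination treatment against control. Without a filter, CD46 gave -0.023 and DPM3 -0.018 with decitabine against control. With voom and limma, C3AR1 gave -0.65 for the combination treatment against control. Leaving out 1 library gave ranges from -0.033 to 0.071 for CD46 and from -0.14 to 0.13 for DPM3 (decitabine against control) and from -2.64 to 1.32 for C3AR1 and from -0.011 to 0.19 for PIGV (combination treatment against control). Between the treatments the ranges were -0.15 to 0.31 for C8G, -0.020 to 0.097 for PIGU, -0.081 to 0.064 for PIGO and -0.086 to 0.17 for IFNGR1. Depth limits CFI and SERPING1, at 0 to 3 counts in a library.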
